A study of Bos taurus with 4 samples.

Results

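Chemokines are small secreted or membrane-anchored proteins that draw leukocytes along a gradient through G-protein-coupled receptors, and cytokines such as interleukin-18 signal between cells at short range. The intestinal epithelium makes a set of them and so decides in part which lymphocytes and phagocytes gather beneath it. To see which of these signals bovine intestinal organoids carry, 10 genes that gut epithelium can express were followed: CCL20, CCL25, CCL28, CXCL2, CXCL5, CXCL8, CXCL10, CXCL16, CX3CL1 and IL18. The rows with these 10 symbols were taken from the 29792 gene rows of each count table, and each symbol had exactly 1 row.

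Tissue and organoids came from Hanwoo cows, a Korean breed of cattle, and the animals were older than 24 months. The 4 groups were small intestine as intact tissue, muscle as intact tissue, intestinal organoids at passage 5 (P5) and intestinal organoids at passage 10 (P10), with 1 library each and no treatment or genetic change in any. Organoids were grown from crypts of the jejunum in Matrigel with IntestiCult medium, and the labels do not say whether the 4 samples shared an animal. RNA was sequenced from the 3′ ends of polyadenylated transcripts, so a read stands roughly for a transcript and not for its length. Because each group was a single library, no difference has a replicate check and none was tested.

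Read totals ran from 12917720 in muscle to 17776273 in intestine, with 13599831 in P5 and 17730571 in P10 organoids. Levels are given as reads and as CPM, which scales a count to a library of 1000000 reads, with exact Poisson 95% intervals, which cover counting error only. A gene was counted as higher or lower when its CPM were at least 2-fold apart and the higher library held at least 10 reads. A library at 0 reads was set to a floor of 3 reads, and the fold is then a bound. Of the 1549 rows with 10 to 19 reads in P5 organoids, 22.6% had no read in P10 organoids, and of the 1092 rows with 10 to 19 reads in P10 organoids, 15.8% had none in P5 organoids, so a count of 0 beside a count in that range was common.

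The labels were checked against cell type markers. The 10 epithelial markers, among them EPCAM and KRT8, summed to 2310 CPM in intestine, 11665 CPM in P5 organoids, 10873 CPM in P10 organoids and 50.1 CPM in muscle. Relative to intestine, the epithelial sum was thus 5.05-fold higher at P5 and 4.71-fold higher at P10. CDX2 and KRT18, for example, had 4 and 825 reads in intestine, 199 and 7790 in P5 organoids and 24 and 33299 in P10 organoids. The 20 leukocyte markers found in the tables summed to 5832 CPM in intestine, 8.24 CPM in P5 organoids, 11.1 CPM in P10 organoids and 80.4 CPM in muscle. Of these 20, 12 had no read in P5 organoids and 14 had none in P10 organoids, including the T cell genes CD3D and CD2 and the macrophage genes C1QA, C1QB, C1QC and CSF1R. Of the 18 that reached 10 reads in each comparison with intestine, 17 were lower and 1 was higher in organoids. S100A12 had 0 reads in intestine but 15 in P5 and 14 in P10 organoids. PTPRC kept 40 and 43 reads, and CD79A 0 and 35. JCHAIN, the joining chain of secreted antibodies, had 86692 reads in intestine and 18 and 82 in P5 and P10 organoids. It made up 4877 CPM of the 5832 CPM in intestine. Endothelial, stromal and smooth muscle markers, such as CDH5, KDR, COL3A1, DCN, CNN1 and ACTG2, were likewise lower in organoids. The 6 endothelial markers summed to 56.4 CPM in intestine and to 3.68 and 3.44 CPM in P5 and P10 organoids. The 7 stromal markers summed to 1056 CPM in intestine and to 4.71 and 0.282 CPM. Muscle held 40705 CPM of 8 skeletal muscle markers, against 2.48 CPM in intestine.

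**Figure D1:**
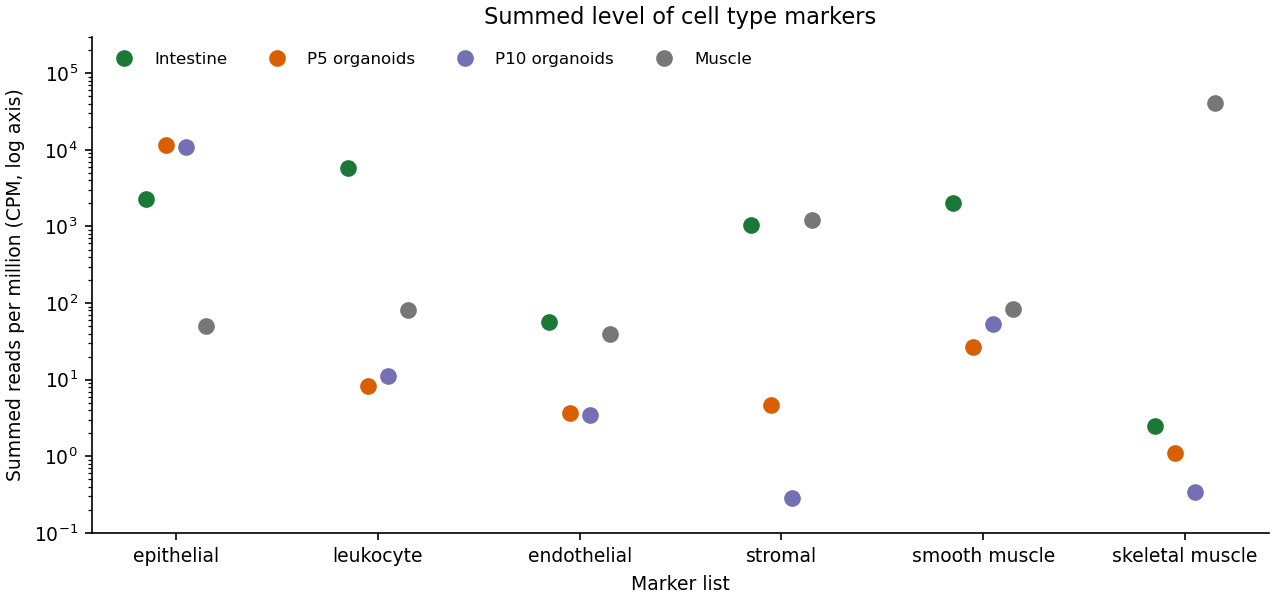
Summed CPM of 6 marker lists, on a log axis, for the 4 libraries, with 1 point for each library. The organoid points stand above intestine for epithelial markers (11665 and 10873 against 2310 CPM) and far below it for leukocyte markers (8.24 and 11.1 against 5832 CPM).

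Levels in organoids and intact intestine therefore refer to different mixtures of cells. In such bulk samples, fewer cells of a type and less RNA per cell cannot be told apart. For this reason the differences of the 10 genes from intestine are also given on a second scale, as reads per 1000 reads of the 10 epithelial markers. Some other genes are given on it too, but not every gene whose direction turns. The 3 keratin genes held 58.9% of the marker reads in intestine, 73.7% in P5 and 78.8% in P10 organoids, so they largely set this scale. Without them, the sum of the remaining 7 markers was 3.23-fold and 2.43-fold higher in P5 and P10 organoids than in intestine. With all 10 markers, the median log2 difference from intestine over all genes was -2.26 at P5 and -2.14 at P10. With the 7 non-keratin markers it was -1.60 and -1.16, and on the CPM scale 0.089 and 0.12.

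By CPM, 3 of the 10 genes were kept in organoids, 5 were lowered, 1 was kept at 1 passage, 1 had too few intestine reads to be placed, and 0 were found in intact intestine alone. Kept means at least 10 reads in intestine, over 3 reads in each organoid library and less than a 2-fold deficit in each. CCL20, CCL28 and CXCL8 met this, CXCL5 met it at P10 only, and CCL25, CXCL10, CXCL16, CX3CL1 and IL18 were at least 2-fold lower at both passages. CXCL2 had 9 reads in intestine, under the minimum of 10. Among the 16759 rows with at least 10 intestine reads, 65.2% were kept, 13.0% were kept at 1 passage, 12.6% were lowered and 9.15% had 3 reads or fewer in each organoid library. On the epithelial scale, 1 gene (CCL20) was kept, CXCL8 was kept at P5 only, and 7 were lowered, with CXCL5 and CCL28 joining the other 5. Most calls over all rows were lower on this scale too, 14868 against 415 higher at P5 and 13807 against 635 at P10. The shares of rows above hold for CPM only. With the 7 non-keratin markers as the scale, CCL20 and CXCL8 were kept, CCL28 and CXCL5 were kept at P10 only, and the other 5 were again lowered. At P10, CXCL8 and CXCL5 were 1.996-fold and 1.990-fold lower on it, so both placements sat at the 2-fold limit. Over all rows it gave 12584 lower and 797 higher at P5, and 9706 and 1573 at P10.

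Against intestine, 3 of the 10 genes were higher in P5 organoids, where 21.5% of the 17783 rows tested were, and 6 were lower, where 24.8% of rows were. In P10 organoids 2 were higher against 26.8% of 17803 rows, and 5 were lower against 28.4%. The median log2 difference of the 10 genes was -1.42 in P5 and -1.31 in P10 organoids, whereas the median over all rows was 0.089 and 0.12. These comparisons share the intestine library.

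**Figure D2:**
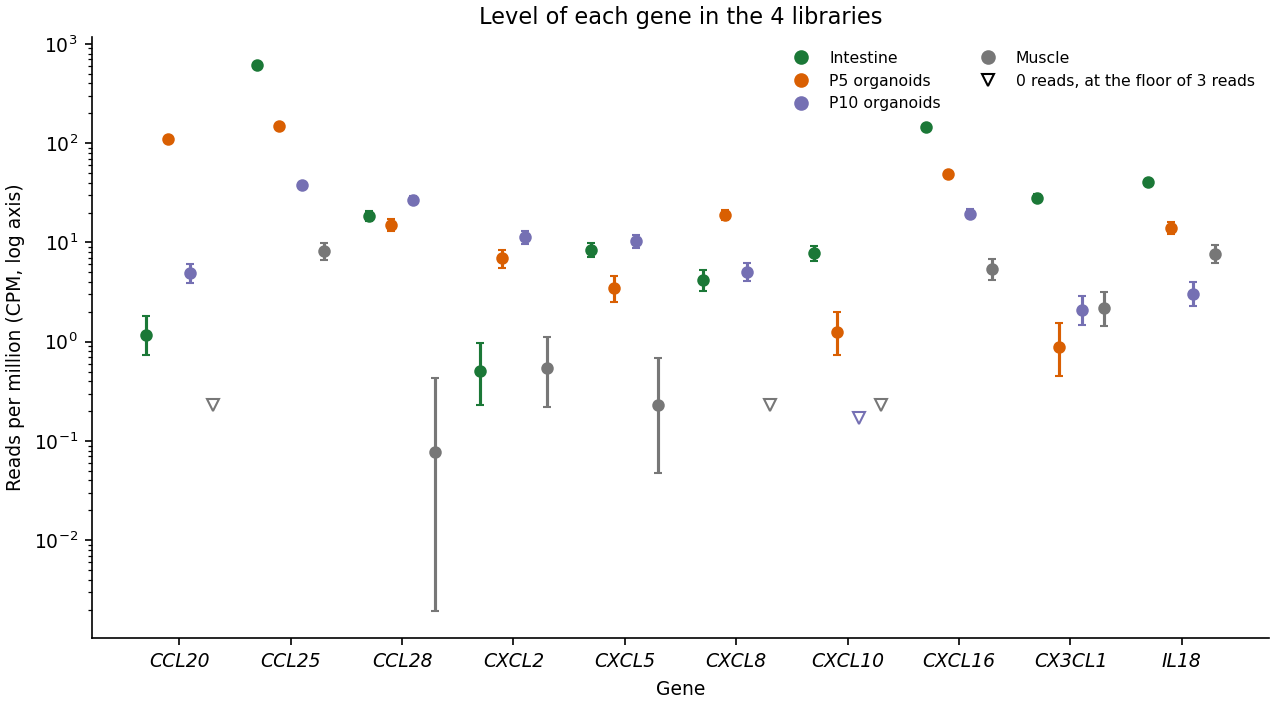
Level of the 10 genes in CPM on a log axis, with 1 point for each library, exact Poisson 95% intervals as bars and open triangles at the floor of 3 reads for libraries with 0 reads. CCL25, CXCL16 and IL18 step down from intestine to P5 to P10 organoids, whereas CCL20 and CXCL8 are highest in P5 organoids and CXCL2 in P10 organoids.

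The 3 CC chemokines of the set each guide lymphocytes to mucosa. CCL20 attracts CCR6-bearing dendritic cells, B cells and T cells, is made above lymphoid follicles and is a known target of inflammatory signals. It had 21 reads in intestine (1.18 CPM, 0.731 to 1.81), 1512 in P5 organoids (111 CPM, 106 to 117), 87 in P10 organoids (4.91 CPM, 3.93 to 6.05) and 0 in muscle. The P5 library stood far above the others, and P10 organoids still lay above intestine. Against intestine, CCL20 was 94.1-fold higher at P5 (61.3 to 152) and 4.15-fold higher at P10 (2.56 to 7.05). Between the passages it was 22.7-fold lower at P10 (18.2 to 28.5). On the epithelial scale CCL20 remained 18.6-fold higher in P5 organoids, while P10 organoids had 0.451 reads per 1000 epithelial marker reads against 0.511 in intestine. With the 7 non-keratin markers it was 1.71-fold higher at P10.

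CCL25 is the chemokine of the small intestine, where it recruits CCR9-bearing T cells and IgA-secreting plasma cells. Intestine held 10935 reads (615 CPM, 604 to 627), P5 organoids 2030 (149 CPM, 143 to 156), P10 organoids 674 (38.0 CPM, 35.2 to 41.0) and muscle 105 (8.13 CPM, 6.65 to 9.84). The 4 libraries were in this order with no overlap of intervals. CCL25 was 4.12-fold lower than intestine in P5 organoids (3.93 to 4.32) and 16.2-fold lower in P10 organoids (15.0 to 17.5). Per epithelial marker read, it was 20.8-fold and 76.2-fold lower. CCL25 made up 70.6% of the reads of the 10 genes in intestine, 40.4% in P5 organoids and 31.4% in P10 organoids, so the summed level of the set, 871, 369 and 121 CPM in that order, followed it. Without CCL25 the sum was 256 CPM in intestine, 220 CPM in P5 organoids and 83.1 CPM in P10 organoids.

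CCL28 is a chemokine of mucosal epithelia in general and binds CCR10 and CCR3. It had 330 reads in intestine (18.6 CPM, 16.6 to 20.7), 205 in P5 organoids (15.1 CPM, 13.1 to 17.3), 477 in P10 organoids (26.9 CPM, 24.5 to 29.4) and 1 in muscle. P5 organoids were slightly below intestine and P10 organoids slightly above it, and no pair of these 3 libraries was 2-fold apart. The fold was 1.23 lower in P5 (1.03 to 1.47), 1.45 higher in P10 (1.26 to 1.67) and 1.79 higher in P10 than in P5 organoids (1.51 to 2.11). Per epithelial marker read, CCL28 was 6.22-fold lower than intestine in P5 and 3.25-fold lower in P10 organoids, and with the 7 non-keratin markers 3.98-fold and 1.68-fold lower.

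CXCL8, CXCL2 and CXCL5 belong to the CXC chemokines that attract neutrophils through CXCR1 and CXCR2. CXCL8, or interleukin-8, had 74 reads in intestine (4.16 CPM, 3.27 to 5.23), 257 in P5 organoids (18.9 CPM, 16.7 to 21.4), 90 in P10 organoids (5.08 CPM, 4.08 to 6.24) and 0 in muscle. It was high in P5 organoids, and P10 organoids could not be told apart from intestine by counting error. The difference from intestine was 4.54-fold in P5 (3.49 to 5.96) and 1.22-fold in P10 organoids (0.887 to 1.68), and P10 was 3.72-fold below P5 (2.92 to 4.79). On the epithelial scale P5 organoids and intestine were alike in size, with 1.62 reads per 1000 epithelial marker reads against 1.80 in intestine, and P10 organoids had 0.467. With the 7 non-keratin markers CXCL8 was 1.40-fold higher at P5 and 1.996-fold lower at P10, just short of 2-fold.

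CXCL2 had 9 reads in intestine (0.506 CPM, 0.232 to 0.961), 94 in P5 organoids (6.91 CPM, 5.59 to 8.46), 199 in P10 organoids (11.2 CPM, 9.72 to 12.9) and 7 in muscle (0.542 CPM, 0.218 to 1.12). Each organoid library was above both tissues, which did not differ beyond counting error. CXCL2 was 13.7-fold higher than intestine in P5 (6.89 to 30.8) and 22.2-fold higher in P10 organoids (11.4 to 49.2). The step from P5 to P10 was 1.62-fold (1.26 to 2.10), short of 2-fold. It was the only one of the 10 genes that was at least 2-fold higher than intestine on the epithelial scale at both passages, by 2.70-fold and 4.71-fold.

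CXCL5 had 150 reads in intestine (8.44 CPM, 7.14 to 9.90), 47 in P5 organoids (3.46 CPM, 2.54 to 4.60), 183 in P10 organoids (10.3 CPM, 8.88 to 11.9) and 3 in muscle. Here P5 organoids were the low library, and P10 organoids and intestine did not differ beyond counting error. CXCL5 was 2.44-fold lower than intestine in P5 organoids (1.75 to 3.46), 1.22-fold higher in P10 organoids (0.980 to 1.53) and 2.99-fold higher in P10 than in P5 organoids (2.16 to 4.21). On the second scale it was 12.3-fold lower at P5 and 3.85-fold lower at P10, and with the 7 non-keratin markers 7.90-fold and 1.990-fold lower. With the quantile normalisation named in the study's methods, the P5 log2 difference was -0.97, just short of 2-fold.

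In the RefSeq annotation of the assembly ARS-UCD2.0, CXCL2, CXCL3 and GRO1 (the bovine CXCL1) follow each other directly on the chromosome that also carries CXCL8, CXCL5 and CXCL10. The authors counted reads with multiple alignments, so reads of these related genes may be split or shared between rows. Summed over CXCL2, CXCL3 and GRO1, intestine had 82 reads (4.61 CPM, 3.67 to 5.73), P5 organoids 209 (15.4 CPM, 13.4 to 17.6), P10 organoids 643 (36.3 CPM, 33.5 to 39.2) and muscle 156 (12.1 CPM, 10.3 to 14.1). By CPM the sum, in which a read counted in several rows enters more than once, was 3.33-fold higher than intestine in P5 organoids (2.57 to 4.36) and 7.86-fold higher in P10 organoids (6.24 to 10.02). On the second scale the direction turned at P5, where the sum was 1.52-fold lower than intestine, and at P10 it was 1.67-fold higher. The turn at P5 was not seen when the keratins were left out of the markers. The sum was then 1.03-fold higher than intestine at P5 and 3.23-fold higher at P10.

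CXCL10 is induced by interferons and attracts CXCR3-bearing T cells and natural killer cells. It had 139 reads in intestine (7.82 CPM, 6.57 to 9.23), 17 in P5 organoids (1.25 CPM, 0.728 to 2.001) and 0 in both P10 organoids and muscle. The floor of 3 reads stands for 0.169 CPM in the P10 library, and the exact upper limit for 0 reads there was 0.208 CPM. CXCL10 was 6.26-fold lower than intestine in P5 organoids (3.77 to 11.0) and at least 46.2-fold lower in P10 organoids. On the second scale it was 31.6-fold and at least 218-fold lower. The deficit of P10 against P5 organoids was at least 7.39-fold, in a range of counts where reads at 0 in P10 organoids were common.

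CXCL16 and CX3CL1 differ from the other chemokines in being made as membrane proteins with the chemokine domain on a mucin-like stalk, from which the metalloproteases ADAM10 and ADAM17 release it. CXCL16 had 2605 reads in intestine (147 CPM, 141 to 152), 658 in P5 organoids (48.4 CPM, 44.8 to 52.2), 347 in P10 organoids (19.6 CPM, 17.6 to 21.7) and 70 in muscle (5.42 CPM, 4.22 to 6.85). The libraries were ordered as for CCL25, without overlap. CXCL16 was 3.03-fold lower than intestine in P5 (2.78 to 3.30) and 7.49-fold lower in P10 organoids (6.69 to 8.40), and 15.3-fold and 35.3-fold lower on the epithelial scale.

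CX3CL1, or fractalkine, is known from activated endothelium as well as from epithelium and binds CX3CR1 on monocytes and macrophages. It had 503 reads in intestine (28.3 CPM, 25.9 to 30.9), 12 in P5 organoids (0.882 CPM, 0.456 to 1.54), 37 in P10 organoids (2.09 CPM, 1.47 to 2.88) and 28 in muscle (2.17 CPM, 1.44 to 3.13). Intestine alone was high, and P10 organoids and muscle did not differ beyond counting error. At 32.1-fold below intestine (18.2 to 62.5), CX3CL1 had the largest deficit of the 10 genes in P5 organoids, and in P10 organoids it was 13.6-fold lower (9.70 to 19.5). On the second scale the deficits were 162-fold and 63.8-fold. CX3CL1 was 2.37-fold higher in P10 than in P5 organoids (1.21 to 4.98), which dropped below 2-fold with 0.5 CPM added (log2 difference 0.90). Endothelial and leukocyte markers were also lower in organoids, as given above, and their part in the CX3CL1, CXCL10, CXCL16 and IL18 differences was not tested.

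IL18 is a cytokine of the interleukin-1 family that epithelial cells and macrophages store as an inactive precursor, which caspase-1 cleaves. It had 725 reads in intestine (40.8 CPM, 37.9 to 43.9), 190 in P5 organoids (14.0 CPM, 12.1 to 16.1), 54 in P10 organoids (3.05 CPM, 2.29 to 3.97) and 99 in muscle (7.66 CPM, 6.23 to 9.33). By CPM, it was the only one of the 10 genes for which P10 organoids lay below muscle beyond counting error with reads in both. That order was not compared under other normalisations. The 18S ribosomal RNA row held 23.6% of muscle reads and 0.264% of P10 reads. IL18 was 2.92-fold lower than intestine in P5 (2.49 to 3.44) and 13.4-fold lower in P10 organoids (10.1 to 18.0). Per epithelial marker read, the deficit was 14.7-fold and 63.0-fold.

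**Figure D3:**
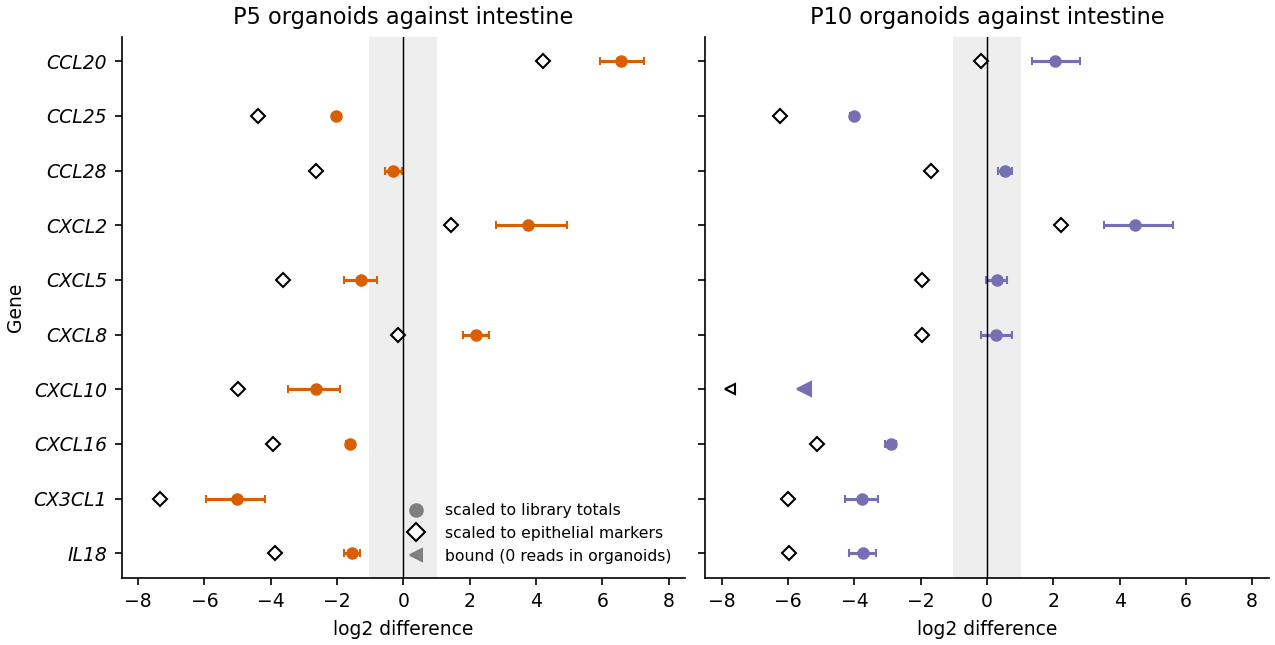
Log2 difference from intestine for each gene in P5 organoids (left) and P10 organoids (right), with filled points for values scaled to library totals and exact 95% counting intervals, open diamonds for values scaled to the 10 epithelial markers, left-pointing triangles for bounds and a grey band within 2-fold. CXCL2 lies right of the band on both scales at both passages, and CCL25, CXCL10, CXCL16, CX3CL1 and IL18 lie left of it throughout.

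Between the passages, 2 of the 10 genes were higher in P10 than in P5 organoids (CXCL5 and, on few reads, CX3CL1), where 18.3% of 16131 rows were, and 6 were lower (CCL20, CCL25, CXCL8, CXCL10, CXCL16 and IL18), where 18.0% were. CCL28 and CXCL2 were above P5 but under 2-fold. The median log2 difference of the 10 genes was -1.60, against 0.12 over all rows, and the epithelial marker sum was 1.07-fold lower in P10. Without the keratins that sum was 3069 CPM in P5 and 2310 CPM in P10 organoids. Over the alternative scalings, the CXCL16 log2 difference between passages reached -0.90, short of 2-fold. Since each passage is a single library, passage and variation between cultures cannot be told apart.

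Against muscle, 9 of the 10 genes reached 10 reads in either library. Intestine was at least 2-fold higher for all 9, a direction in which 57.1% of 17559 rows were also called, and lower for 0, against 11.5% of rows. CXCL2, with 9 and 7 reads, could not be called. The median log2 difference of the 9 genes was 4.76 and the median over all rows was 1.30, which moved to 0.020 with quantile, 0.29 with TMM and 0.13 with upper-quartile normalisation. Under these, 8, 9 and 9 of the 10 genes were still higher in intestine. The 18S ribosomal RNA row RN18S1 held 23.6% of muscle reads and from 0.264% to 4.81% elsewhere. CCL28, with 1 muscle read, had a fold of 240 (42.7 at the lower end of its interval), and CXCL5, with 3 reads, a fold of 36.3 (12.2 at the lower end).

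**Figure D4:**
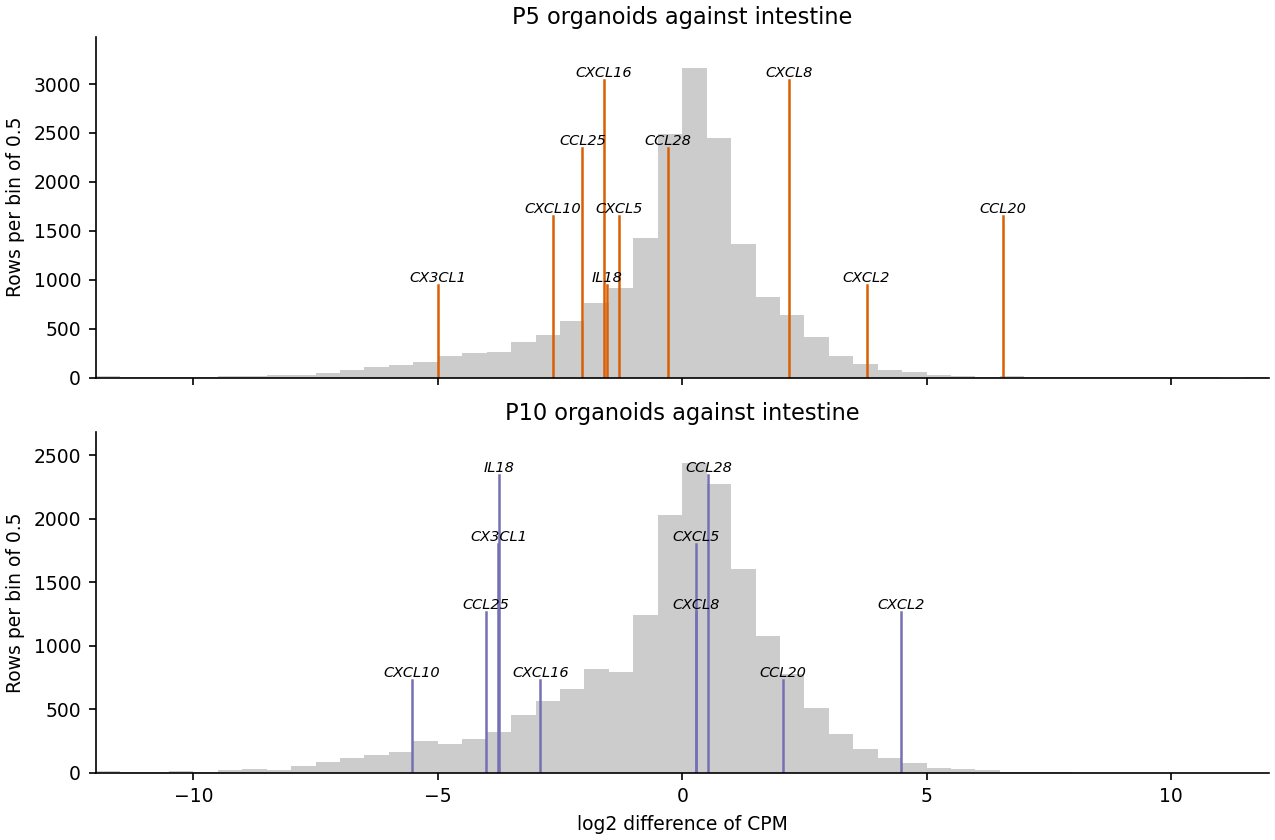
Number of gene rows (at least 10 reads in either library) in bins of 0.5 on the log2 scale of CPM differences from intestine, for P5 organoids (top) and P10 organoids (bottom), with a labelled line for each of the 10 genes, CXCL10 at its bound in P10. CCL20 stands at 6.56 in P5 organoids and at 2.05 in P10 organoids, and CX3CL1 at -5.00 and -3.76.

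Receptors for these ligands are mainly known from leukocytes. Of 11 receptor genes, 7 reached 10 reads in intestine or P5 organoids, and all 7 were at least 2-fold lower in P5, where 24.8% of all rows were. In the P10 comparison 8 reached 10 reads, of which 7 were lower and 1 was higher, against 28.4% and 26.8% of all rows. CCR6, the CCL20 receptor, had 225 reads in intestine and none in either organoid library, at least 57.4-fold and 74.8-fold lower in P5 and P10 organoids. CCR9, the CCL25 receptor, had 109 reads in intestine and none in organoids, at least 27.8-fold and 36.2-fold lower. CXCR6, the CXCL16 receptor, had 416 reads in intestine, 15 in P5 and 31 in P10 organoids. These receptors were thus low or at 0 in both organoid libraries.

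The exception was CCR10, which binds CCL28 and had 9 reads in intestine, 3 in P5 organoids and 33 in P10 organoids, 3.68-fold higher by CPM in P10 than in intestine (1.72 to 8.74). Per epithelial marker read it was 1.28-fold lower, and with the 7 non-keratin markers 1.51-fold higher. CCR3 had 27, 2 and 0 reads in intestine, P5 and P10 organoids, and CX3CR1 had 31, 0 and 0. The IL18 receptor chains IL18R1 and IL18RAP had 94 and 48 reads in intestine, 5 and 14 in P5 organoids, and 18 and 0 in P10 organoids. CXCR2 had 9, 1 and 0 reads, and CXCR1 and CXCR3 had no read in any library, so nothing can be said of the receptors for CXCL8 and CXCL10 at this depth. In muscle the receptors summed to 4.80 CPM, against 54.5 CPM in intestine.

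The 12 genes that process, bind or clear these ligands included ADAM10, ADAM17 and CASP1, which are described for their roles and were picked with values in view. In P5 organoids 3 were higher and 3 lower than intestine (median log2 difference 0.35), and in P10 organoids 1 was higher and 6 lower (median -1.11). Over all rows, 21.5% were higher and 24.8% lower at P5, and 26.8% and 28.4% at P10. ADAM10 and ADAM17, the proteases that shed CXCL16 and CX3CL1, had 867 and 572 reads in intestine, 929 and 618 in P5 organoids, and 1358 and 867 in P10 organoids, all within 2-fold by CPM. Scaled to epithelial markers, ADAM10 was 3.61-fold lower at P5 and 3.00-fold lower at P10, and ADAM17 3.58-fold and 3.10-fold lower. With the 7 non-keratin markers, ADAM10 was 2.31-fold and 1.55-fold lower, and ADAM17 2.29-fold and 1.60-fold lower. CASP1, which matures IL18, had 2727, 2417 and 1120 reads in intestine, P5 and P10 organoids, and was 2.43-fold lower than intestine in P10 (2.26 to 2.61). At P5 it was 1.16-fold higher by CPM. Per epithelial marker read it was 4.36-fold lower at P5 and 11.4-fold lower at P10. IL18BP, a secreted inhibitor of IL18, was 5.43-fold lower in P5 (4.29 to 6.97) and 4.37-fold lower in P10 organoids (3.60 to 5.34). ACKR1, a chemokine-binding receptor of venular endothelium, had 59 reads in intestine and 0 in each organoid library.

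Other chemokines were mostly low in organoids. Of 23 other chemokine genes, 21 reached 10 reads in each comparison. Of these, 16 were lower and 2 higher in P5 organoids than in intestine (median log2 difference -4.49), and 18 were lower and 3 higher in P10 organoids (median -5.01), with genes at 0 placed at their bound. Over all rows, 24.8% were lower and 21.5% higher at P5, and 28.4% and 26.8% at P10. CCL11 (eotaxin) and CXCL12, both well known from stromal cells, had 4124 and 2092 reads in intestine and no read in either type of organoid culture. CCL11 was at least 1052-fold lower in P5 organoids and CXCL12 at least 533-fold lower. Of the set, all 10 genes had a read in P5 organoids and 9 had one in P10 organoids, and 16 of the 23 other chemokines were at 0 in P5 and 19 in P10 organoids. Of all 29792 rows, 18920 had a read in P5 and 17563 in P10 organoids. Having a read is a weaker measure than a call, as CX3CL1 and CXCL10 had 12 and 17 reads at P5. CCL26, another eotaxin, went the other way, with 7 reads in intestine, 78 in P5 and 252 in P10 organoids, 14.6-fold higher (6.74 to 37.4) and 36.1-fold higher (17.3 to 90.7) by CPM, and 2.88-fold and 7.67-fold higher per epithelial marker read.

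Of 21 other cytokine genes, 14 reached 10 reads in the P5 comparison, of which 1 was higher and 5 were lower, against 21.5% and 24.8% of all rows. In the P10 comparison 15 did, of which 2 were higher and 8 lower, against 26.8% and 28.4%. IL1RN, the interleukin-1 receptor antagonist, was 2.69-fold higher in P5 (2.15 to 3.38) and 2.15-fold higher in P10 organoids (1.72 to 2.69) by CPM. Scaled to epithelial markers, the direction turned, to 1.88-fold and 2.19-fold lower. TNFSF13B, the B cell factor BAFF, had 113 reads in intestine, 3 in P5 and 54 in P10 organoids. TSLP had 102, 0 and 4.

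Other lists held genes that receive or relay the inducing signals. Of 14 receptors for interleukins, interferons and TNF, 5 were higher and 1 lower in P5 organoids (median log2 difference 0.26), and 1 was higher and 5 lower in P10 organoids (median -0.49). Over all rows, 21.5% were higher and 24.8% lower at P5, and 26.8% and 28.4% at P10. IL1R1, the interleukin-1 receptor, was 9.69-fold lower in P5 (5.99 to 16.6) and 5.69-fold lower in P10 organoids (4.05 to 8.17). Of 18 regulators of NF-κB and interferon signalling, 1 was higher and 1 lower in P5 organoids, and 1 was higher and 4 lower in P10 organoids. The same shares of all rows stand beside these counts. ZC3H12A, a ribonuclease that degrades cytokine transcripts, was 2.95-fold higher in P5 (2.10 to 4.18) and 2.02-fold higher in P10 organoids (1.43 to 2.89) by CPM. Scaled to epithelial markers, it was instead 1.71-fold and 2.33-fold lower.

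**Figure D5:**
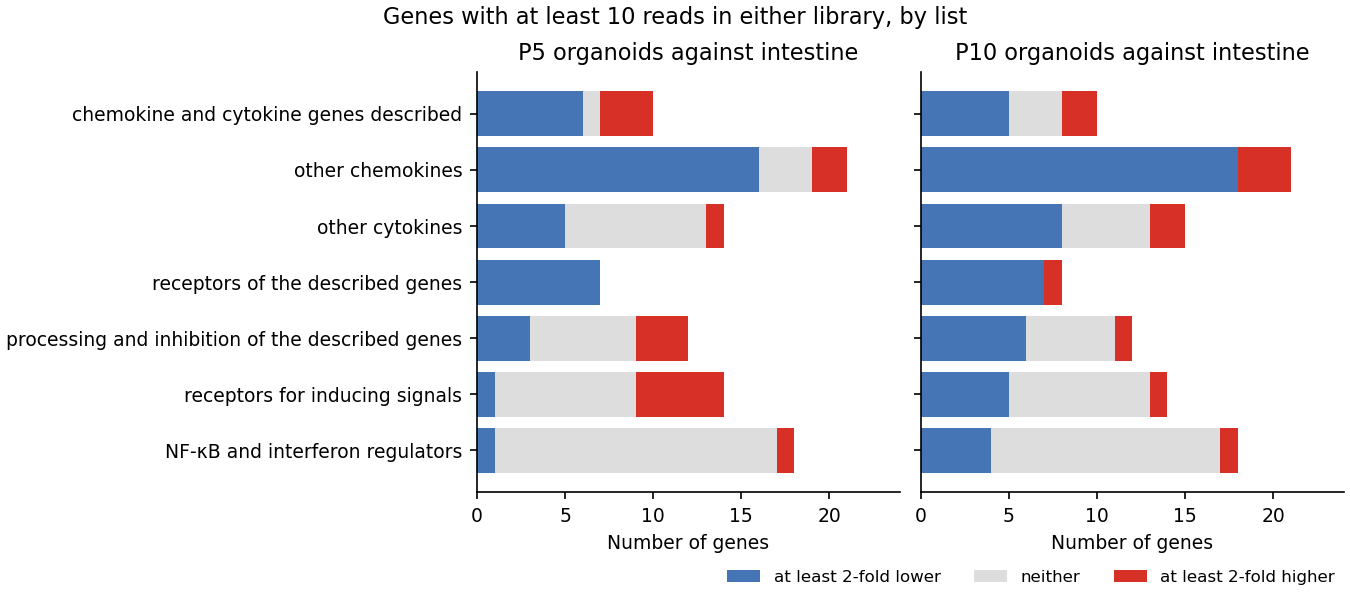
Number of genes in 7 lists that were at least 2-fold lower (blue), at least 2-fold higher (red) or neither (grey) in P5 organoids (left) and P10 organoids (right) against intestine, counting only genes whose higher library held 10 reads or more. The blue bar covers 16 and 18 of 21 other chemokines but 1 and 4 of 18 regulators of NF-κB and interferon signalling. Over all rows, 24.8% were lower in P5 and 28.4% in P10 organoids.

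Profiles over the 4 libraries were compared as log2(CPM + 0.5) centred per gene, by Euclidean distance, over genes reaching 50 reads in some library. Nearest to CCL25 was SMLR1 (distance 0.248), with 2192 reads in intestine, 402 at P5, 110 at P10 and 12 in muscle, followed by BCHE (0.430) and GPRIN3 (0.457). Nearest to CX3CL1 was ITGAX (0.178), an integrin of dendritic cells and macrophages, with 197, 0, 8 and 8 reads in the same order. For CXCL16 the nearest were ABHD6 (0.155) and RGS16 (0.161), for CXCL8 HSD11B2 (0.163), for IL18 IFI27 (0.198), for CCL28 EXOC3L4 (0.235), for CXCL5 BATF2 (0.284), for CXCL2 TDRKH (0.154) and for CXCL10 LOC104974749 (0.0664). CCL20 had no close neighbour, its nearest being CDH26 at 1.26 with 5, 456, 31 and 0 reads. With 4 libraries such likeness is a description of the shape only.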

How the data were processed

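Total RNA of 4 bovine samples, 1 library each, was made into QuantSeq 3′ mRNA-Seq libraries. The authors aligned reads with Bowtie2 and counted unique and multiple alignments per gene with Bedtools, and the deposited values are raw read counts, without normalisation. Genome build and annotation are not given in the sources used here. Values were scaled to library totals as CPM. The quantile normalisation that the study's methods name was run as an alternative, since it gave a single read a log2 value from 0.32 in intestine to 2.09 in muscle and P10 organoids.

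A call needed a 2-fold difference and 10 reads or more on the higher side. Libraries with 3 reads or fewer were set to 3 for calls, and folds with 1 to 3 reads are printed from the reads themselves. Poisson and conditional binomial (Clopper-Pearson) 95% intervals are exact and cover counting error only, because PCR copies are not independent molecules. No test between groups was possible.

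The 10 genes, the lists and the rules were chosen with earlier results of these data known. Named genes are the 10 genes, their receptors and, in each other list, up to 2 genes per direction with the largest P5 difference, at least 50 reads and the same call at P10, and up to 3 nearest profiles per gene. Alternatives were quantile, edgeR TMM and edgeR upper-quartile normalisation, totals without RN18S1, scaling to epithelial markers, 0.5 CPM added, a minimum of over 3 or of 50 reads, libraries thinned to the smallest total and rows summed by symbol. Scaling to the 7 epithelial markers other than keratins was added after seeing the data. List symbols were matched exactly or through synonyms in RefSeq (ARS-UCD2.0), by which CXCL1 was read as GRO1 and CXCL6 as the described CXCL5. IL17C, CSF3R and GNLY were not matched and not analysed here. Normalisation ran in R 4.3.3 with edgeR 4.0.16 and limma 3.58.1 (quantile), intervals in Python 3.11.15 with scipy 1.17.1, and table work and plots with pandas 2.3.3, numpy 2.4.6 and matplotlib 3.10.9.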

Additional observations from a re-analysis of the deposited data

Results flagged for a closer look

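With 1 library per passage, a gene or list was singled out here when P5 and P10 organoids lay on opposite sides of intestine, and no such difference between passages was tested. CCL28 lay at a log2 difference of -0.30 from intestine in P5 and 0.54 in P10 organoids, a gap of 0.84. CXCL5 lay at -1.29 and 0.29, a gap of 1.58. On the epithelial scale CCL28 and CXCL5 were below intestine at both passages. Among the lists, the median of the 12 processing and inhibition genes was 0.35 in P5 and -1.11 in P10 organoids, a gap of -1.46, and the median of the 14 receptors for inducing signals was 0.26 and -0.49, a gap of -0.75.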

How the results depend on the processing

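No paired analysis was possible because each group has 1 library. For the same reason no library could be left out of a group. Of 256 counts compared across the alternatives, 222 stayed within 1.5-fold. Of 420 log2 differences of the 10 genes, 313 stayed within their counting interval, 105 moved and 2 that had been called changed sign. Sign changes of differences that had not been called are not among these 2. The changed read minimums and the sum of rows by symbol could not change a log2 difference of these genes. Under each of them all 40 differences were therefore the same, which adds to the 313.

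Both changes of sign among called differences came with scaling to the epithelial markers. Under it CXCL8 in P5 organoids and CCL20 in P10 organoids turned from above to slightly below intestine (log2 differences -0.15 and -0.18). In P10 organoids 1 of the 10 genes was then higher and 8 were lower, and 1 was kept at both passages. Over all rows, 415 were higher and 14868 lower in P5 organoids (2.72% of calls higher), and 635 higher and 13807 lower in P10 organoids (4.40%), in place of 3822 and 4419 (46.4%), and 4773 and 5053 (48.6%). Over the 6 lists of related genes, 1 was higher and 77 lower in P5 organoids, in place of 12 and 33, and 2 higher and 81 lower in P10 organoids, in place of 9 and 48. The same scaling without keratins, chosen after seeing the data, gave 797 higher and 12584 lower rows in P5 organoids (5.96% of calls higher), 1573 and 9706 in P10 organoids (13.9%), and 4965 higher in P10 than in P5 organoids (2946 before, with 50.3% of calls higher and now 69.4%). With it, 1 and 5 of the list genes were higher in P5 and P10 organoids and 71 were lower in P5, 1 of the 10 genes was higher in P10 organoids than in intestine and 4 were higher than in P5 organoids (CCL28 and CXCL2 as well), and 2 were kept at 1 passage.

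With quantile normalisation 0 of the 10 genes were kept at 1 passage, since CXCL5 in P5 organoids fell short of 2-fold. Of the genes higher in P10 than in P5 organoids, 1 was left with 0.5 CPM added and 1 with a minimum of 50 reads, CXCL5 in each case. That minimum also lowered the counts over all rows to 2909 lower in P5 and 3305 lower in P10 organoids against intestine, and to 1522 lower in P10 against P5 organoids (2910 before), since fewer rows were tested. For intestine against muscle, 10023 rows were higher and 2023 lower (83.2% of calls higher). Quantile normalisation gave 4684 and 4630 (50.3%), TMM 5983 and 4024 (59.8%) and upper-quartile normalisation 5423 and 4540 (54.4%). The cause of these shifts was not tested. Depth limits CXCL2 in intestine, CX3CL1 and CXCL10 in P5 organoids and the receptors, which rest on few reads.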

Other observations

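A few genes of the fixed lists were picked out after their values were seen. CXCL11, an interferon-induced chemokine that lies next to CXCL10 in the RefSeq annotation, had 44 reads in intestine, 45 at P5 and 0 at P10, and CXCL9 had 67, 0 and 0. TNFAIP3, which encodes the NF-κB inhibitor A20, had 454, 271 and 28 reads in the same order, and was 16.2-fold lower in P10 organoids than in intestine (11.0 to 24.6). NLRP3, an inflammasome sensor upstream of caspase-1, had 30, 92 and 0 reads. ACKR2, a decoy receptor for CC chemokines, had 312, 1102 and 603 reads. At P5 it was 4.62-fold higher than in intestine by CPM (4.07 to 5.25). Per epithelial marker read it was 1.09-fold lower at P5, but 1.43-fold higher when the keratins were left out of the markers.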
